A study of Rattus norvegicus with 11 samples.

Results

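Prostaglandin E2 (PGE2) was compared with no treatment in cultured sensory neurons of the rat dorsal root ganglion (DRG). The comparison used 7 of the 11 libraries of the series, 4 from cultures given PGE2 at 1 µM and 3 from untreated cultures, with 4 further libraries treated with Schwann cell conditioned medium (SCCM) set aside. It covered the 12123 of 22076 genes whose mean over the 7 libraries was at least 1 FPKM, a measure of transcript level scaled to transcript length and to sequenced fragments. All cultures were wild-type Sprague-Dawley, and ganglia were taken from the embryos on day 15 of gestation. Immunopanning, in which cells are sorted on antibody-coated dishes, gave the purified neurons, and PGE2 was added on day 13 in vitro and left overnight before RNA was taken on day 14. The controls carry the label of no treatment, and no vehicle is named. Each replicate pooled 10 to 18 embryos of 1 pregnant rat, so the spread between replicates is that between litters and their cultures.

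PGE2 is made from arachidonic acid by cyclooxygenases and PGE synthases and acts on the EP receptors, which are encoded by Ptger1 to Ptger4. EP2 and EP4 act through the G protein Gs, which switches on adenylyl cyclases and raises cyclic AMP, EP3 acts mainly through Gi, which lowers it, and EP1 raises calcium. Cyclic AMP activates protein kinase A (PKA) and Epac, and PKA phosphorylates ion channels and the transcription factor CREB. In sensory neurons PGE2 is best known as an inflammatory mediator that makes pain-sensing neurons fire more readily. The title of the series names excitability of sensory neurons during development as its subject.

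The cultures carried the transcripts of sensory neurons. Over the 7 libraries, the neuronal tubulin Tubb3 lay between 828 and 1659 FPKM and the peripheral neurofilament Prph between 2179.54 and 3279.65 FPKM. The glial marker Sox10 was at 0 in the PGE2 libraries and at most 0.07 FPKM in the untreated ones. Relative sequencing depth differed by at most 1.32-fold between libraries, and totals of sequenced fragments are not given. Between 11312 and 12185 genes reached 1 FPKM in PGE2 libraries and between 11933 and 12327 in untreated libraries (exact permutation test, two-sided, p = 0.114, n = 4 and 3). Mitochondrially encoded genes took 3.20 to 8.14% of FPKM in PGE2 libraries and 3.37 to 5.54% in untreated libraries (exact p = 0.457), and the 10 most abundant genes took 6.70 to 9.35% against 7.33 to 7.70% (exact p = 0.571). Adjusted over these 3 exact tests the p-values are 0.343, 0.571 and 0.571, and with 4 libraries against 3 such an exact test cannot go below p = 0.0571.

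The PGE2 libraries did not form 1 group. On the leading principal component, with 61.6% of all variance, PGE2 libraries 1 to 4 scored −7.76, −29.0, 48.0 and 68.6, against 2.73, −29.8 and −52.8 in untreated libraries 1 to 3. PGE2 libraries 1 and 2 thus lay inside the untreated range and PGE2 libraries 3 and 4 outside it, while untreated library 3 stood farthest at the other end. Across genes, the rank correlation of PGE2 library 2 with untreated library 2 was 0.984, the highest of all 21 pairs, and only 123 genes differed by at least 1 log2 unit between them. PGE2 library 2 differed by that much from PGE2 library 4 in 3235 genes, with a rank correlation of 0.861. PGE2 library 1 was likewise closer to untreated library 1 (0.964) than to PGE2 library 3 (0.918) or PGE2 library 4 (0.890). These correlations describe libraries over genes that are not independent, and all libraries share the same gene set.

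No gene passed the test. On log2(FPKM + 1), limma called 0 of the 12123 genes at an adjusted p under 0.05 (0.0%), and its lowest adjusted p was 0.595. At an unadjusted p under 0.05 there were 537 genes (4.43%), of which 136 had a higher mean with PGE2 (1.12%) and 401 a lower one (3.31%). The median log2 difference over all genes was −0.17, and 32.6% of genes had a higher mean with PGE2. Both numbers depend on the scale. With median-ratio scaling, which sets the middle gene of each library equal, the median was −0.01, 48.5% of genes had a higher mean, and the 493 genes at an unadjusted p under 0.05 split into 285 higher and 208 lower. Differences and counts below are therefore to be read beside the all-gene median of −0.17 and beside the shares of all genes with a lower mean, 67.4% in FPKM and 51.6% after median-ratio scaling. For each gene list the count after that scaling follows as "scaled". Without PGE2 libraries 3 and 4, a choice made after seeing the data, 105 genes had an unadjusted p under 0.05 and none was called.

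The values of all 4 PGE2 libraries lay above those of all 3 untreated libraries for 211 genes (1.74%) and below them for 435 genes (3.59%), together 646 genes (5.33%). With median-ratio scaling the same counts were 361 (2.98%) and 244 (2.01%), so the side with more genes changed with the scale. Genes without overlap on both scales numbered 146 in the higher direction (1.2%) and 193 in the lower (1.59%). Counts of list or family members without overlap are to be read beside the shares of all genes. These are 1.74% higher and 3.59% lower in FPKM, and 2.98% and 2.01% after scaling. The 211 higher genes differed by a median of 0.47 log2 units (range 0.08 to 1.48), and 11 of them by at least 1. The 435 lower genes differed by a median of −0.49, and 32 of them by at least 1 log2 unit. The gap between the groups was small in most of them, with a median of 0.069 log2 units for the higher and 0.075 for the lower genes. Mean expression was a median of 24.5 FPKM in the higher genes and 7.47 FPKM in the lower genes, against 10.7 FPKM over all genes tested.

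Each PGE2 library contributed unequally to these counts. PGE2 libraries 1 to 4 lay above the whole untreated range in 1922, 2147, 2834 and 2715 genes and below it in 3414, 1987, 5678 and 6388 genes. Departures of at least 1 log2 unit below that range were found in 64, 10, 451 and 1064 genes. Among the PGE2 libraries, 3 and 4 thus held nearly all the large departures. Low values like theirs were also found in some SCCM libraries, which were set aside. Fgf21, described below, measured 349, 37.3, 51.2 and 38.2 FPKM in SCCM libraries 1 to 4. Atf3 measured 48.2, 3.76, 8.38 and 56.7 FPKM there, so SCCM library 4 did not always share them. These examples were picked after the values were seen. The library that most often kept a gene from standing apart was PGE2 library 2, which alone lay inside or across the untreated range in 1292 genes that the other 3 put below it and in 396 that they put above it. Those counts were 360 and 240 for PGE2 library 1, 85 and 45 for PGE2 library 3, and 140 and 122 for PGE2 library 4.

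**Figure D1:**
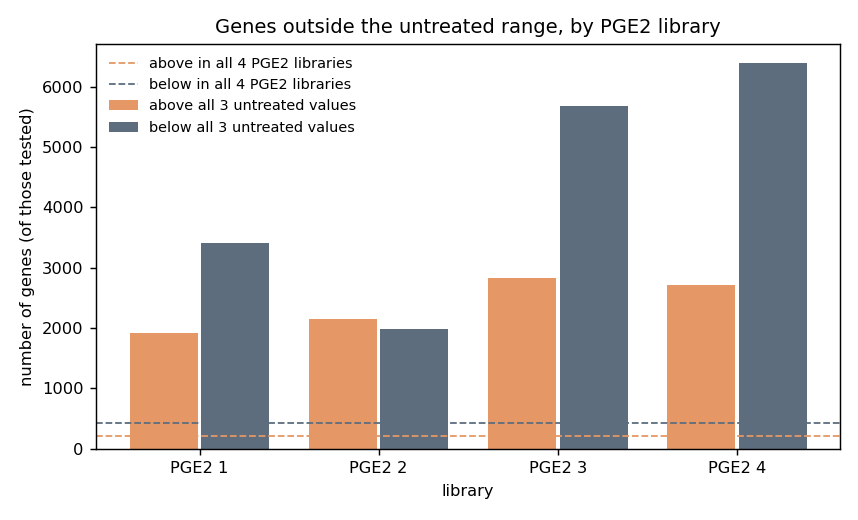
Genes outside the untreated range, by PGE2 library. Bars count, of 12123 genes tested, those above (orange) or below (grey) all 3 untreated values in each of the 4 PGE2 libraries, and dashed lines mark the 211 and 435 genes that did so in all 4; bars for libraries 3 and 4 reach 5678 and 6388 genes below the range, against 3414 and 1987 for libraries 1 and 2.

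In the higher direction, 192 of the 211 genes had a settled symbol, and the 15 with the widest gaps among these are described here. The values of the PGE2 libraries are given in the order of their numbers, followed by those of the untreated libraries in theirs, and limma's adjusted p was between 0.595 and 0.947 for every gene named by the rule given with the methods. Gtdc1, a glycosyltransferase-like gene, had the widest gap and measured 3.25, 3.16, 3.14 and 4.2 FPKM in PGE2 libraries, against 1.97, 1.85 and 1.25 FPKM in untreated libraries. Its lowest PGE2 value stood above the highest untreated one by 0.48 log2 units, with a log2 difference of 0.73 (SE 0.21, 95% interval 0.25 to 1.202). Cdkn3, a phosphatase of cyclin-dependent kinases, measured 20.01, 18.1, 30.2 and 17.85 FPKM in PGE2 libraries, against 12.85, 12.8 and 8.87 FPKM in untreated libraries. PGE2 library 3 was highest, and the difference was 0.84 (SE 0.25). Phgdh, the first enzyme of serine synthesis, measured 9.48, 9.34, 11.55 and 9.47 FPKM in PGE2 libraries, against 7.1, 6.67 and 4.9 FPKM in untreated libraries. In this gene PGE2 libraries 1, 2 and 4 agreed closely and library 3 lay above them, and the difference was 0.61 (SE 0.20).

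Partners of potassium and calcium channels named in this direction, picked by their gaps, were Dpp10, Dpp6 and Cacna2d3. Dpp10, an auxiliary subunit of Kv4 potassium channels, measured 3.7, 2.87, 3.28 and 7.81 FPKM with PGE2, against 2.02, 2.12 and 2.11 FPKM untreated, and its relative Dpp6 measured 50.9, 41.4, 82.2 and 109.8 FPKM with PGE2, against 34.5, 35.1 and 31.5 FPKM untreated. Untreated values of both genes lay close together, and PGE2 library 4 was the highest in both, with differences of 0.73 (SE 0.30) and 0.95 (SE 0.33). Cacna2d3, an alpha2delta subunit that carries calcium channels to the membrane, measured 8.21, 9.33, 12.45 and 18.2 FPKM with PGE2, against 6.71, 6.31 and 4.73 FPKM untreated, a difference of 0.87 (SE 0.28). Avil, the actin-binding protein advillin of sensory neurons, measured 233, 254, 334 and 254 FPKM in PGE2 libraries, against 177, 198 and 80.3 FPKM in untreated libraries. Much of its difference of 0.91 (SE 0.33) lay in untreated library 3, which was far below the other untreated libraries.

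Single genes of endosomes, chromatin and mitochondria were also in this group. Vps8, a subunit of the CORVET complex that tethers endosomes, measured 8.97, 7.77, 10.1 and 9.13 FPKM in the PGE2 cultures and 6.08, 5.75 and 5.33 FPKM in the untreated cultures, with a difference of 0.57 (SE 0.18). Brd9, a bromodomain subunit of a SWI/SNF chromatin remodeller, measured 28.9, 26.2, 31.1 and 33.4 FPKM in the PGE2 cultures and 22.1, 22.1 and 22.1 FPKM in the untreated cultures. The untreated values of Brd9 were nearly equal, and the difference was 0.42 (SE 0.17). Pdha1, a subunit of pyruvate dehydrogenase, which feeds pyruvate into the mitochondrial citric acid cycle, measured 11.3, 14.3, 12.3 and 14.2 FPKM with PGE2, against 9.53, 9.59 and 7.81 FPKM untreated. The difference was 0.49 (SE 0.19). Tubgcp2 of the gamma-tubulin complex (0.60), Edil3, a secreted integrin-binding protein (0.49), Cnih1, a cargo receptor for export from the endoplasmic reticulum (0.30), and the semaphorin receptor Plxna3 (0.36) completed the list together with Rph3a, described with the synaptic genes.

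In the lower direction, 385 of the 435 genes had a settled symbol. The widest gaps among these included a transcription factor of sensory neurons, an ETS repressor, metallothionein and genes of lysosomes, stress and signalling. Rps27l, a ribosomal protein relative known in other cells as a target of p53, measured 4.14, 3.75, 4.15 and 3.73 FPKM in PGE2 libraries, against 6.77, 6.63 and 6.12 FPKM in untreated libraries. Both groups were tight, and the difference was −0.60 (SE 0.18, 95% interval −1.01 to −0.20). Styx, a phosphatase relative without catalytic activity, measured 2.03, 1.95, 2.54 and 1.65 FPKM in PGE2 libraries, against 4.03, 3.82 and 4.14 FPKM in untreated libraries. Here too no PGE2 library came near the untreated ones, and the difference was −0.72 (SE 0.20). Isl1, a LIM homeodomain factor of sensory and motor neurons, measured 4.55, 12.9, 8.45 and 10.4 FPKM in PGE2 libraries, against 19.7, 17.85 and 19.2 FPKM in untreated libraries. PGE2 library 1 was lowest, PGE2 library 2 lay nearest to the untreated values, and the difference was −1.06 (SE 0.31, 95% interval −1.76 to −0.36). The limma unadjusted p was 0.00791 and the adjusted p 0.595.

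Erf, a transcriptional repressor of the ETS family that ERK phosphorylation sends out of the nucleus, measured 36.6, 48.45, 33.7 and 21.1 FPKM in PGE2 libraries, against 93.1, 61.5 and 60.6 FPKM in untreated libraries. Its mean was 34.96 ± 11.2 FPKM over the 4 PGE2 libraries and 71.7 ± 18.5 FPKM over the 3 untreated libraries (mean ± SD), a difference of −1.04 (SE 0.30). Cemip2, which encodes a transmembrane hyaluronidase, measured 4.8, 5.99, 3.32 and 3 FPKM with PGE2, against 15.5, 8.49 and 8.44 FPKM untreated. PGE2 libraries 3 and 4 were lowest, and the difference was −1.15 (SE 0.30). Gpsm3, a modulator of Gi proteins, measured 3.69, 4.84, 1.56 and 1.55 FPKM with PGE2, against 6.7, 7.82 and 11.6 FPKM untreated, a difference of −1.38 (SE 0.35). Phlda3, a PH-domain protein that restrains AKT and is known as a p53 target, measured 21.6, 19.8, 11.85 and 8.82 FPKM with PGE2, against 32.6, 28.3 and 30.5 FPKM untreated. In this gene libraries 1 and 2 with PGE2 stood between the untreated values and those of libraries 3 and 4, and the difference was −1.01 (SE 0.31).

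In Mt1, Mt2A and Ifi30, PGE2 libraries 3 and 4 were lower than libraries 1 and 2. Mt1, a zinc-binding metallothionein, measured 17.8, 32.2, 1.67 and 2.01 FPKM in PGE2 libraries, against 46.2, 40.25 and 51.95 FPKM in untreated libraries. PGE2 libraries 3 and 4 were far below PGE2 libraries 1 and 2, with a difference of −2.48 (SE 0.86). Mt2A measured 1.86, 5.41, 0.24 and 0.22 FPKM with PGE2, against 7.37, 5.48 and 6.28 FPKM untreated, overlapping after scaling, and reads of these similar paralogs may have been shared between them. Ifi30, a thiol reductase of lysosomes, measured 3.4, 3.33, 0.94 and 1.21 FPKM with PGE2, against 5.23, 4.71 and 16.4 FPKM untreated. Untreated library 3 was high in this gene, and the difference was −1.502 (SE 0.47). Eif4ebp3, a repressor of cap-dependent translation (−0.95), Ewsr1, an RNA-binding protein (−0.59), Net1, an exchange factor for RhoA (−0.90), Hoxc4 (−0.75), Nnt, the mitochondrial transhydrogenase (−0.72), and Yjefn3 (−1.04) made up the rest. Among genes with a settled symbol, the lowest unadjusted p in the lower direction was that of Fgfbp3, a secreted carrier of fibroblast growth factors, at 3.89, 6.96, 3.72 and 2.07 FPKM in the PGE2 cultures and 7.83, 12.7 and 16.3 FPKM in the untreated cultures (limma unadjusted p = 0.00401, adjusted p = 0.595). All 30 genes named by their gap also stood apart, in the same direction, after median-ratio scaling.

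**Figure D2:**
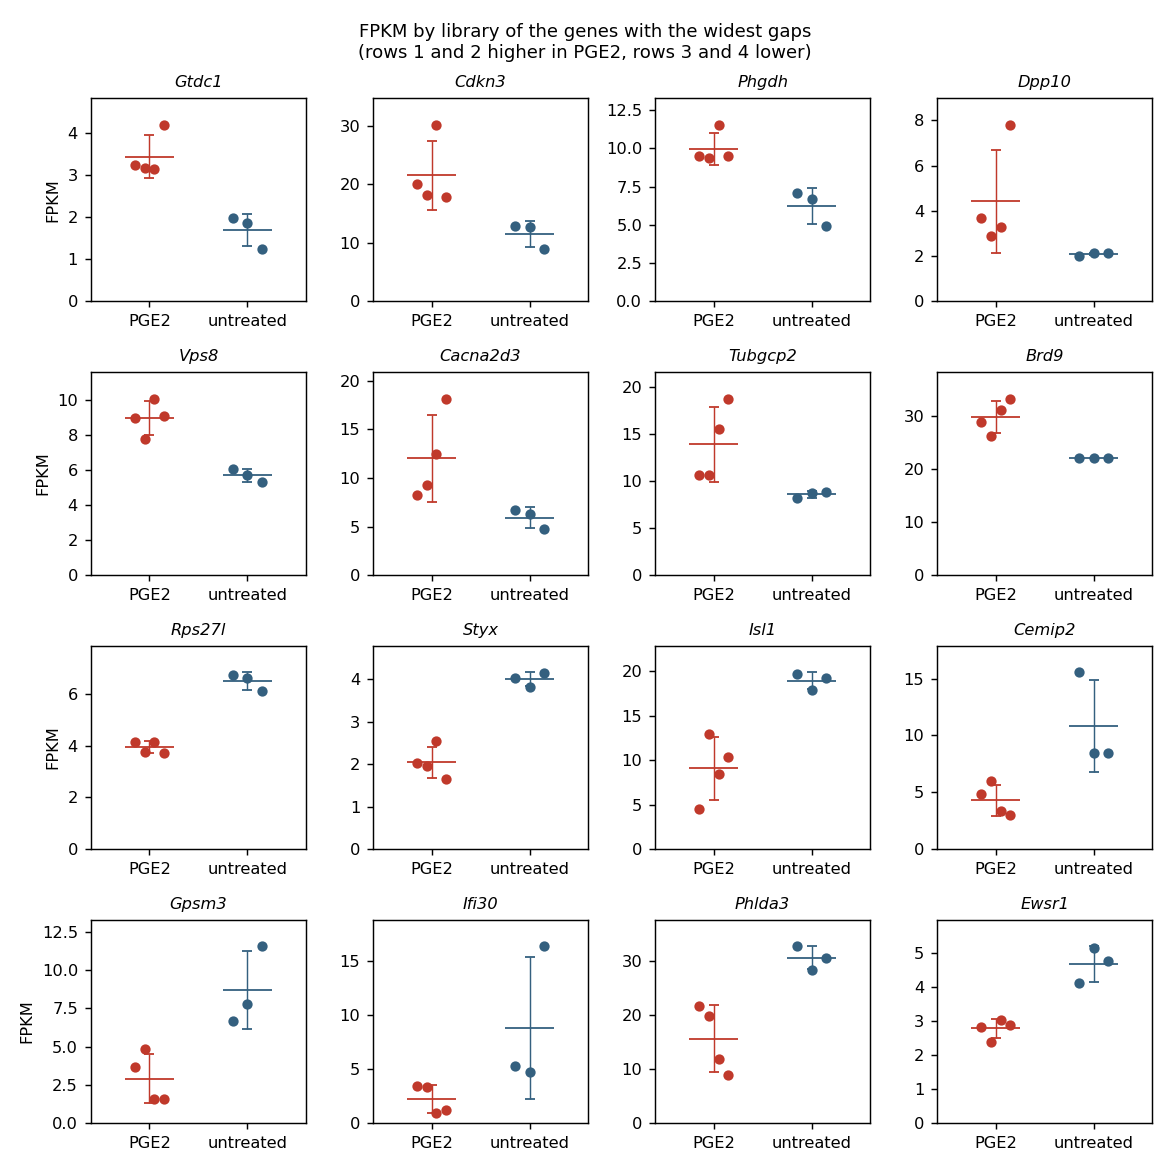
FPKM by library of the 8 genes per direction with the widest gaps among genes with a settled symbol. Points are libraries (PGE2 left, n = 4; untreated right, n = 3), horizontal lines are means and bars are SD; the upper rows hold genes higher with PGE2, such as Gtdc1 at 3.14 to 4.20 FPKM with PGE2 against 1.25 to 1.97 untreated, and the lower rows genes lower with PGE2, such as Isl1 at 4.55 to 12.9 against 17.9 to 19.7.

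At the margin, absence of overlap rested on differences as small as 0.01 FPKM. Rgs7bp, which anchors RGS7-family regulators of G proteins, was counted as higher at 24.9, 19.04, 38.98 and 49.3 FPKM with PGE2, against 19.03, 17.97 and 11.6 FPKM untreated, since 19.04 FPKM in PGE2 library 2 just exceeded 19.03 FPKM in untreated library 1. Selenot, just outside, had 36.8 FPKM as both its lowest PGE2 value and its highest untreated value. On the lower side Cherp was counted at 16.2, 16.8, 12.8 and 13.8 FPKM with PGE2, against 16.8, 20.04 and 32.7 FPKM untreated, and Mbtps2 was not, with 2.23 FPKM in both PGE2 library 2 and untreated library 2. The other genes just inside were Cdipt and Ccdc32 in the higher and Gsk3a and Numb in the lower direction, and those just outside were Calml3 and D2hgdh and, on the lower side, Gdf1 and Gin1.

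Transcripts of the PGE2 receptors were at most 10.3 FPKM and did not separate the groups. Ptger1 (EP1) measured 2.96, 2, 4.77 and 2.12 FPKM in PGE2 libraries, against 5.21, 2.39 and 0.86 FPKM in untreated libraries, with a difference of 0.17 (SE 0.42). Ptger2 (EP2) measured 1.18, 7.14, 8.22 and 2.94 FPKM in PGE2 libraries, against 4.59, 10.3 and 0.59 FPKM in untreated libraries. The range of the PGE2 values lay inside that of the untreated values, and the difference was 0.12 (SE 0.71), or −0.66 without untreated library 3. Ptger3 (EP3) measured 1.1, 1.99, 1.18 and 1.79 FPKM in PGE2 libraries, against 0.84, 1.2 and 0.91 FPKM in untreated libraries, a difference of 0.33 (SE 0.22) with overlap in FPKM and none after median-ratio scaling. Ptger4 (EP4) stayed under the mean of 1 FPKM and measured 0.37, 1.14, 0.6 and 0.22 FPKM with PGE2, against 0.65, 1.51 and 0.93 FPKM untreated. Of 6 genes of prostaglandin synthesis, transport and breakdown that were tested, 5 had a lower mean (4 scaled), and the median was −0.28. The exception was Abcc4, a pump that exports prostaglandins and cyclic AMP, which measured 5.37, 6.63, 10.9 and 6.38 FPKM with PGE2, against 5.09, 4.64 and 2.79 FPKM untreated without overlap and differed by 0.67 (SE 0.28).

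Of 22 genes for G protein alpha subunits, adenylyl cyclases and receptor desensitisation, 15 had a higher mean (17 scaled), and the median was 0.13. Without overlap, 3 stood above the untreated range and 1 below it (4 and 0 scaled). Gnas, which encodes Gs, was abundant and differed by −0.01 (SE 0.23), at 1235, 1386, 943 and 981 FPKM in the PGE2 cultures and 1145, 1269 and 993 FPKM in the untreated cultures. It was picked after its values were seen. Gnal, which encodes the Gs relative Golf, measured 26.1, 26.5, 38.3 and 50.85 FPKM in PGE2 libraries, against 23.5, 21.3 and 12.2 FPKM in untreated libraries. It did not overlap, with PGE2 library 4 highest, and the difference was 0.86 (SE 0.31). Gnao1, which encodes the Go protein of neurons, measured 375, 350.2, 544 and 789.6 FPKM in PGE2 libraries, against 317, 335 and 339 FPKM in untreated libraries. PGE2 library 4 was far above every untreated library, PGE2 libraries 1 and 2 only a little above them, and the difference was 0.56 (SE 0.30). Gnai1, a Gi subunit, measured 43.9, 47, 47.1 and 50.9 FPKM with PGE2, against 34.4, 38.55 and 42.9 FPKM untreated, a difference of 0.29 (SE 0.17). Grk5, a kinase that desensitises receptors, was the lower one at 10.9, 10.2, 8.17 and 12.6 FPKM with PGE2, against 13.1, 13.3 and 13.2 FPKM untreated, and it overlapped after median-ratio scaling.

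In FPKM, no effector of cyclic AMP on the lists stood apart. Of 10 phosphodiesterases, which break down cyclic nucleotides, 6 had a higher mean (7 scaled, median 0.23), and of 29 genes of PKA, Epac and CREB, 15 did (19 scaled, median 0.01). After scaling, 2 of the 29 stood above the untreated range. Pde10a measured 10.3, 4.31, 11.2 and 11.8 FPKM with PGE2, against 7.95, 4.99 and 2.11 FPKM untreated, with PGE2 library 2 apart from the other 3. Pde2a, the other phosphodiesterase named, measured 21.9, 25.4, 65.5 and 56.6 FPKM with PGE2, against 40.9, 28.1 and 18.9 FPKM untreated. Rapgef4, which encodes the cyclic AMP sensor Epac2, measured 7.3, 9.3, 35.5 and 27.7 FPKM in PGE2 libraries, against 11.4, 9.22 and 4.51 FPKM in untreated libraries. PGE2 libraries 3 and 4 were far above every untreated library, whereas libraries 1 and 2 fell within the untreated range, and the difference was 0.97 (SE 0.56). Adcy1, a calcium-stimulated adenylyl cyclase picked after its values were seen, was likewise high in PGE2 libraries 3 and 4 at 2.83, 3.21, 14.95 and 14.1 FPKM with PGE2, against 3.16, 3.13 and 2.14 FPKM untreated. Atf1, a relative of CREB, ran the other way at 3.93, 5.63, 1.63 and 2.08 FPKM with PGE2, against 3.65, 7.32 and 8.9 FPKM untreated.

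CREB binds the cyclic AMP response element (CRE), an 8-base palindrome, and promoters were searched for it because PGE2 receptors signal through cyclic AMP. RefSeq gives a promoter window for 24 of the 30 genes named by their gap, and the full element, TGACGTCA, was in none of those windows, which run from 250 bases before the start of the gene to 50 after it. Over all genes tested it was in 284 of 8447 windows (3.36%). It was in 8 of 148 windows of the genes without overlap in the higher direction and 8 of 320 in the lower, but windows were at hand for fewer than 80% of these 211 and 435 genes, so a comparison of the sets is void. The hypoxia response core ACGTG, searched on both strands, was in 27.0% of all windows. As examples of non-overlapping list members with the element, picked after the values were seen, the 250 bases before the start are shown for Gnao1, for the tubulin Tubb2a, both higher with PGE2, and for Skil, a repressor of SMAD signalling that was lower. The capitals mark the element, whose first base lies 121, 61 and 53 bases before the start. The build is GRCr8, and the regions are chr19:11198438-11198687 (minus strand), chr17:31001936-31002185 (plus strand) and chr2:114203573-114203822 (minus strand). A match is a stretch of letters and does not show that CREB binds there.
Gnao1: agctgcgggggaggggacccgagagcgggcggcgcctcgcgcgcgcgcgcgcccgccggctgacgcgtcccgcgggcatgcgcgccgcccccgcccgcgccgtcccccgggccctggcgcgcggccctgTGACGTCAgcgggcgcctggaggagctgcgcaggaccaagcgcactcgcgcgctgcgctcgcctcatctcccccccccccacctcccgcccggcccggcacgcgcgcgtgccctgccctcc
Tubb2a: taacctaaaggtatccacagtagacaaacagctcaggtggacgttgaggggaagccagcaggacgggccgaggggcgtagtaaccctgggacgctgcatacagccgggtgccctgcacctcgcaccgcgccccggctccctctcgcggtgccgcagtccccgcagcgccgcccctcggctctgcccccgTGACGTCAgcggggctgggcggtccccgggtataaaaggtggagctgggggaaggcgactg
Skil: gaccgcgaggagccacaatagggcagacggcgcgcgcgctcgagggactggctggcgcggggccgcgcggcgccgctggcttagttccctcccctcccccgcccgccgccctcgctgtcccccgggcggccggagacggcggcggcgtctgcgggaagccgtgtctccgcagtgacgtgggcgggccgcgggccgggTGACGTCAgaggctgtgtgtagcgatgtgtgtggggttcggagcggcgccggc

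Among genes known to be induced by cyclic AMP and neuronal activity, 30 of the 33 tested had lower means on both scales, with a median of −0.79, and none stood apart in FPKM (1 below, scaled). The mean of the list in PGE2 libraries 1 to 4, relative to the untreated mean, was −0.37, 0.32, −1.33 and −1.66. Untreated libraries ran from −0.48 to 0.41 on the same scale, so PGE2 libraries 1 and 2 fell within that range and libraries 3 and 4 below it. Btg2, an antiproliferative early gene, measured 25.5, 24.1, 3.95 and 2.5 FPKM in PGE2 libraries, against 16.8, 27.2 and 64.8 FPKM in untreated libraries, a difference of −1.63 (SE 0.80). Junb, a subunit of the AP-1 transcription factor, measured 33.3, 62.8, 3.04 and 1.38 FPKM in PGE2 libraries, against 17.5, 42.5 and 51.7 FPKM in untreated libraries. Its value in PGE2 library 2 was the highest of all 7 and that in library 4 the lowest. Rgs2, a regulator of G protein signalling and the member with the lowest unadjusted p (limma unadjusted p = 0.0126, adjusted p = 0.595), was picked after its values were seen and measured 3.38, 11.5, 5.64 and 3.68 FPKM with PGE2, against 10.9, 14.2 and 15.2 FPKM untreated.

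Feedback genes of the ERK pathway and ETS repressors, another arm downstream of receptor signalling, had a lower mean in 18 of 21 cases (15 scaled, list median −0.46). Only Erf, described above, did not overlap. Dusp6, an ERK phosphatase picked after its values were seen, measured 1.11, 10.6, 4.27 and 1.14 FPKM with PGE2, against 17.2, 11.3 and 3.75 FPKM untreated. PGE2 libraries 1 and 4 were lowest in it, not 3 and 4, and the list mean was likewise lowest in libraries 1 and 4, at −0.86 and −0.75 relative to untreated, against −0.35 in library 3 and 0.06 in library 2.

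Voltage-gated sodium channel genes had higher means for all 14 members tested on both scales. Of them 4 did not overlap (3 scaled, since Nalcn then overlapped), against 1.74% of all genes in FPKM. The median difference of the list was 0.75, and it lay between 0.33 and 0.93 over 18 alternatives. Relative to the untreated mean, the list averaged 0.17, 0.18, 0.86 and 1.25 in PGE2 libraries 1 to 4, and untreated libraries 1 and 2 stood at 0.20 and 0.14. PGE2 libraries 1 and 2 thus lay between untreated libraries 1 and 2, and untreated library 3 was low at −0.34. The members without overlap were auxiliary proteins and a leak channel. Fgf12, an intracellular partner of sodium channels, measured 20.7, 16.3, 22.5 and 35.4 FPKM in PGE2 libraries, against 13.85, 14.4 and 9.68 FPKM in untreated libraries, a difference of 0.82 (SE 0.28, 95% interval 0.18 to 1.46). Fgf13, of the same family, measured 37.5, 35.9, 36.8 and 76.1 FPKM in PGE2 libraries, against 32.5, 33.02 and 28.6 FPKM in untreated libraries. PGE2 libraries 1 to 3 lay within 2 FPKM of each other and library 4 far above them, and the difference was 0.48 (SE 0.29).

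Nalcn, the sodium leak channel that helps set resting potential, measured 1.74, 1.48, 3.05 and 5.33 FPKM with PGE2, against 1.4, 1.41 and 0.51 FPKM untreated, a difference of 0.82 (SE 0.36). Scn4b, a beta subunit, measured 6.27, 5.26, 4.14 and 12.1 FPKM with PGE2, against 4.12, 4.03 and 2.06 FPKM untreated and cleared the untreated range by 0.02 FPKM in PGE2 library 3. The pore-forming subunits of voltage-gated channels overlapped. Among them the nociceptor channels Scn10a and Scn11a (Nav1.8 and Nav1.9) differed by 1.28 (SE 0.58) and 0.96 (SE 0.45), with values in PGE2 libraries 1 and 2 of 18.1 and 32.9 FPKM for Scn10a and 0.88 and 1.56 FPKM for Scn11a, inside the untreated range or just above it. Their values in PGE2 libraries 3 and 4 were 83.7 and 89.8 FPKM for Scn10a and 4.65 and 5.24 FPKM for Scn11a. Both genes were picked after their values were seen.

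Calcium channel genes had higher means for 14 of 17 members (15 scaled, median 0.56), and Cacna2d3 alone did not overlap in FPKM (2 members scaled). Relative to the untreated mean, the list averaged −0.099, 0.156, 0.799 and 0.811 in PGE2 libraries 1 to 4. Untreated libraries 1 to 3 stood at 0.2, 0.081 and −0.281, so PGE2 libraries 1 and 2 fell within their range. Cacng3, a membrane partner of AMPA receptors placed on this list by family, was picked after its values were seen and measured 28.02, 42.7, 39.4 and 54.2 FPKM with PGE2, against 20.6, 28.3 and 24.65 FPKM untreated, a difference of 0.70 (SE 0.25). In FPKM it overlapped through PGE2 library 1 only. Potassium channel genes had higher means for 29 of 37 members (31 scaled, median 0.26), and 3 did not overlap (2 scaled, since Kcnab2 then overlapped). Their list averaged −0.015, 0.075, 0.556 and 0.451 in PGE2 libraries 1 to 4, relative to the untreated mean. Here too PGE2 libraries 1 and 2 fell within the untreated range, with untreated libraries 1 to 3 at 0.211, 0.096 and −0.307. Kcnab2, a beta subunit of Kv1 channels, measured 29.9, 27.75, 48.3 and 83.05 FPKM in PGE2 libraries, against 27, 23.9 and 13.4 FPKM in untreated libraries. The rank of the PGE2 libraries, with library 4 far above, was that of Dpp6 and Gnao1, and the difference was 1.02 (SE 0.41, 95% interval 0.09 to 1.95). Kcnip3, a calcium-binding partner of Kv4 channels, measured 2.66, 2.81, 6.64 and 13.1 FPKM with PGE2, against 2.53, 2.28 and 1.8 FPKM untreated, a difference of 0.97 (SE 0.46). Kcnj6, the inward rectifier GIRK2, measured 3.18, 3.13, 2.96 and 3.29 FPKM with PGE2, against 2.34, 2.95 and 1.8 FPKM untreated, with the tightest PGE2 values of the 3.

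Sensory transduction and pacemaker channels had higher means for 12 of 22 members and a median of 0.05, with none apart. After scaling 16 of 22 were higher, with 1 apart. Tmem150c, a protein linked to mechanically activated currents, measured 12.2, 18.1, 46.7 and 32.7 FPKM with PGE2, against 12.1, 14.8 and 4.13 FPKM untreated. Piezo2, the main touch channel of sensory neurons, measured 7.25, 9.78, 29.7 and 28.3 FPKM with PGE2, against 9, 8.28 and 3.77 FPKM untreated. In both genes PGE2 libraries 3 and 4 were far above every untreated library and library 1 was not, and the differences were 1.31 (SE 0.52) and 1.14 (SE 0.52).

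Genes of synaptic vesicles and release had higher means for 42 of 54 members (47 scaled, median 0.32). Without overlap, 7 stood above the untreated range and 1 below it, against 1.74% and 3.59% of all genes. After scaling 4 stood above and none below, and Cadps and Rab3a were among those that then overlapped. Relative to the untreated mean, the list averaged 0.183, 0.131, 0.417 and 0.546 in PGE2 libraries 1 to 4. Untreated libraries 1 to 3 stood at 0.175, 0.083 and −0.258. Cadps, which primes dense-core vesicles, measured 34.8, 28.8, 49.6 and 72.7 FPKM in PGE2 libraries, against 27.5, 20.7 and 10.4 FPKM in untreated libraries. Its difference of 1.22 (SE 0.40, 95% interval 0.32 to 2.12) was the largest of this list. Rph3a, which encodes the Rab3 effector rabphilin, measured 3.22, 2.48, 2.29 and 22.7 FPKM in PGE2 libraries, against 1.86, 1.88 and 0.94 FPKM in untreated libraries. Only PGE2 library 4 was far from the rest, and the difference was 1.21 (SE 0.65). Snap25, a SNARE protein of the plasma membrane, measured 129, 151, 232 and 196 FPKM with PGE2, against 128, 120.4 and 56.8 FPKM untreated, a difference of 0.85 (SE 0.34). Rab3a, the vesicle GTPase, measured 285, 273, 369.6 and 507 FPKM with PGE2, against 263, 246 and 261 FPKM untreated, a difference of 0.44 (SE 0.25). The further members were Vamp1, Napb and Nsf of the SNARE cycle in the higher direction and Vamp3, a SNARE found in most cell types, in the lower.

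Pan-neuronal and cytoskeletal genes had higher means for 29 of 36 members (32 scaled, median 0.34). Of the 36, 5 did not overlap (7 scaled, though Mapt then overlapped), against 1.74% of all genes in FPKM. Relative to the untreated mean, the list averaged 0.211, 0.124, 0.389 and 0.553 in PGE2 libraries 1 to 4. Untreated libraries 1 to 3 stood at 0.318, 0.055 and −0.373, so PGE2 libraries 1 and 2 fell within their range. Tubb2a, a beta-tubulin, measured 480, 475, 572 and 445 FPKM in PGE2 libraries, against 408, 329.8 and 273 FPKM in untreated libraries. Tubb2b, a close paralog with which reads may have been shared, measured 399, 450.1, 559 and 393 FPKM in PGE2 libraries, against 346, 328 and 243 FPKM in untreated libraries. PGE2 library 3 was the highest in both, and the differences were 0.56 (SE 0.22) and 0.56 (SE 0.23). Mapt, which encodes the microtubule-binding protein tau, measured 44.1, 40.8, 54.6 and 94.6 FPKM with PGE2, against 38.6, 39.1 and 34.15 FPKM untreated, a difference of 0.56 (SE 0.29), with PGE2 library 4 far above the others. Tubb4b and Snap25 completed the group, and Tubb3 overlapped.

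Neurotransmitter receptors had higher means for 26 of 39 members (29 scaled, median 0.22, or −0.02 without untreated library 3). Grin1, the obligatory NMDA receptor subunit, measured 10.4, 9.98, 12.5 and 15.9 FPKM with PGE2, against 8.24, 9.37 and 7.33 FPKM untreated, a difference of 0.49 (SE 0.22). Htr3a, a serotonin-gated channel, measured 4.26, 4.38, 6.67 and 9.86 FPKM with PGE2, against 3.26, 3.53 and 3.71 FPKM untreated, a difference of 0.63 (SE 0.28). Chrna5, a nicotinic receptor subunit, measured 2.34, 2.67, 3.98 and 3.15 FPKM with PGE2, against 2.07, 2.13 and 1.78 FPKM untreated. The adenosine receptor Adora2a, which acts through Gs, was lower without overlap at 0.95, 1.13, 0.39 and 0.2 FPKM with PGE2, against 1.16, 1.34 and 3.02 FPKM untreated. Axon guidance and adhesion genes had higher means for 27 of 51 members (32 scaled, median 0.02), and 36 of 51 lay above the all-gene median. In FPKM 3 stood above the untreated range and 1 below it, and after scaling 4 and 0. Slit1, a secreted guidance cue, measured 19.9, 19.8, 23.8 and 21.5 FPKM in the PGE2 cultures and 18.1, 17.1 and 12.9 FPKM in the untreated cultures and differed by 0.40 (SE 0.19). Plxnc1, a semaphorin receptor also on the subtype list, measured 7.45, 7.12, 9.88 and 7.32 FPKM in the PGE2 cultures and 5.45, 5.75 and 6.85 FPKM in the untreated cultures, and Sema3f was lower, without overlap in FPKM only, at 1.61, 1.96, 1.96 and 2.07 FPKM in the PGE2 cultures and 2.45, 2.51 and 2.27 FPKM in the untreated cultures.

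Sensory neuron identity factors had a lower mean in 18 of 23 cases (16 scaled, list median −0.34). Without overlap, 4 stood below the untreated range, Isl1 among them, against 3.59% of all genes. Pou4f2, a POU homeodomain factor, measured 4.6, 5.02, 4.23 and 4 FPKM in PGE2 libraries, against 7.91, 5.47 and 7.23 FPKM in untreated libraries. Its PGE2 values lay within about 1 FPKM of each other, and the difference was −0.52 (SE 0.20, 95% interval −0.98 to −0.06). Pou4f3, of the same family, measured 1.34, 2.35, 0.04 and 0.28 FPKM in PGE2 libraries, against 2.39, 2.52 and 2.99 FPKM in untreated libraries. Here PGE2 libraries 3 and 4 were near 0 and library 2 just under the untreated range, and the difference was −1.01 (SE 0.40). Bcl11a, a zinc-finger repressor, measured 0.85, 0.87, 0.67 and 1.09 FPKM with PGE2, against 1.98, 1.1 and 2.01 FPKM untreated, a difference of −0.51 (SE 0.22). After median-ratio scaling Bcl11a overlapped and the other 3 stood apart. Pou4f1, another family member and a sensory neuron marker, overlapped at 18.95, 34.9, 61.4 and 39.6 FPKM with PGE2, against 72.1, 51.1 and 20.7 FPKM untreated.

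Markers of sensory subtypes had higher means for 12 of 15 members (13 scaled, median 0.35, or −0.06 without untreated library 3). Calb2, which encodes the calcium buffer calretinin, measured 2.99, 3.65, 6.06 and 14.97 FPKM in PGE2 libraries, against 2.59, 2.16 and 1.41 FPKM in untreated libraries. Calb1, which encodes calbindin, measured 4.03, 5.69, 4.28 and 2.24 FPKM in PGE2 libraries, against 8.31, 7.36 and 5.74 FPKM in untreated libraries. In FPKM these calcium-binding proteins lay on opposite sides of the untreated range, at 1.17 (SE 0.46) and −0.72 (SE 0.28), and Calb1 overlapped after median-ratio scaling. Neurotrophin and GDNF family genes had 7 of 10 higher means on both scales (median 0.06). Their most different member was Nrtn, the ligand neurturin, at 7.47, 12.4, 0.82 and 0.35 FPKM with PGE2, against 6.92, 11.9 and 18.7 FPKM untreated. Neuropeptide and granin genes had a lower mean in 16 of 24 cases (14 scaled, list median −0.27), close to the 67.4% of all genes, and no member without overlap. Gal, which encodes galanin, measured 33.2, 16.45, 0.47 and 0.88 FPKM with PGE2, against 86.6, 10.8 and 23.03 FPKM untreated, and Adm, which encodes adrenomedullin, measured 9.63, 51.1, 0.16 and 0.15 FPKM with PGE2, against 12.9, 56.5 and 30.9 FPKM untreated. Tac1, the substance P precursor picked after its values were seen, had the highest of the 24 differences at 0.84 (SE 0.41).

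Injury and regeneration genes had a lower mean in 18 of 26 cases, a share near the 67.4% of all genes, with a list median of −0.59. After scaling 17 of 26 were lower, against 51.6% of all genes. On both scales 1 member, Tubb2b, described above, stood above the untreated range and 2 stood below it. Sox11, a transcription factor of growing axons, measured 18.6, 19.03, 11.99 and 6.79 FPKM in PGE2 libraries, against 23.6, 24.1 and 23.8 FPKM in untreated libraries. The untreated values lay within 0.5 FPKM of each other, PGE2 libraries 3 and 4 were lowest, and the difference was −0.81 (SE 0.33). Ecel1, an endopeptidase-like protein induced by nerve injury, measured 1.76, 2.25, 0.37 and 1.04 FPKM with PGE2, against 2.87, 2.74 and 2.49 FPKM untreated, a difference of −0.72 (SE 0.31).

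**Figure D3:**
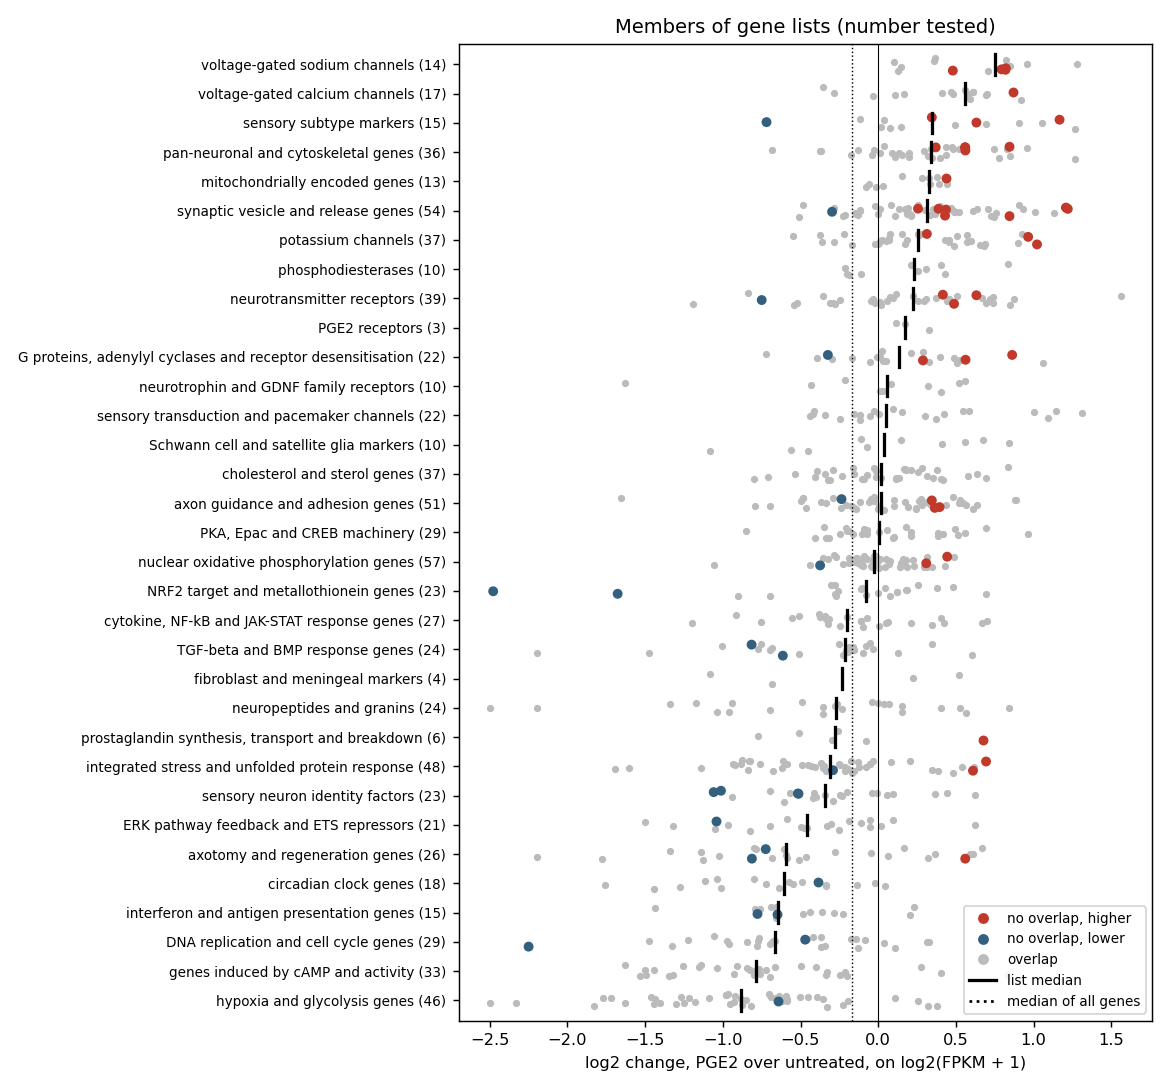
Log2 differences of list members. Each point is 1 gene (PGE2 over untreated on log2(FPKM + 1)), coloured where the groups do not overlap; black bars are list medians and the dotted line is the all-gene median of −0.17. Sodium channels have the highest median (0.75) and hypoxia and glycolysis genes the lowest (−0.88) of the 33 lists with at least 3 tested members.

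Of the lists with at least 3 members, hypoxia and glycolysis genes had the median farthest from 0, with lower means for 42 of 46 members on both scales and a median of −0.88. Relative to the untreated mean the list averaged −0.33, 0.14, −1.52 and −1.86 in PGE2 libraries 1 to 4, and untreated libraries ran from −0.24 to 0.16. PGE2 libraries 3 and 4 thus lay far below that range, library 1 just below it and library 2 inside it. Egln1, the oxygen-sensing prolyl hydroxylase, was the only member without overlap in FPKM, at 15.6, 19.2, 11.25 and 10.7 FPKM in PGE2 libraries, against 21.5, 22.2 and 22.6 FPKM in untreated libraries. The difference was −0.64 (SE 0.23). After scaling 1 member of the list stood above the untreated range and 1 below it. Ankrd37, a target of hypoxia-inducible factors that was named for its spread, measured 11.4, 23.1, 0.55 and 0.34 FPKM in PGE2 libraries, against 17.05, 29.3 and 27.8 FPKM in untreated libraries. PGE2 library 2 was inside the untreated range in this gene, and PGE2 libraries 3 and 4 were below 1 FPKM.

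The integrated stress and unfolded protein responses had a lower mean in 39 of 48 cases (32 scaled, list median −0.31), yet 2 members stood above the untreated range (3 scaled). Atf5, a transcription factor of this response, measured 623, 600.2, 1105 and 1018 FPKM in PGE2 libraries, against 486, 535 and 474 FPKM in untreated libraries, a difference of 0.69 (SE 0.28). Phgdh was the other. Pdia4, a disulfide isomerase of the endoplasmic reticulum, was lower without overlap in FPKM only, at 15.2, 15.6, 12.7 and 14.03 FPKM with PGE2, against 16.25, 16.4 and 21.1 FPKM untreated. Fgf21, a secreted factor induced by this response, measured 506, 735, 55.3 and 30.4 FPKM with PGE2, against 572, 499.9 and 485 FPKM untreated. PGE2 libraries 1 and 2 reached untreated levels or more, and libraries 3 and 4 were several-fold below them.

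TGF-beta and BMP response genes had 21 of 24 lower means (15 scaled, median −0.22). Id2, an inhibitor of bHLH factors, measured 1.69, 2.24, 0.87 and 0.76 FPKM with PGE2, against 3.65, 3.18 and 2.47 FPKM untreated, a difference of −0.82 (SE 0.28), and Skil measured 9.16, 10.04, 5.41 and 5.67 FPKM with PGE2, against 11.8, 12.3 and 11.2 FPKM untreated, a difference of −0.61 (SE 0.25). Interferon and antigen presentation genes had 13 of 15 lower means on both scales (median −0.65). Irf7 measured 1.56, 2.37, 1.34 and 0.36 FPKM with PGE2, against 3.25, 2.64 and 2.9 FPKM untreated and Irf9, a partner of STAT proteins, measured 2.85, 2.34, 2.92 and 3.73 FPKM with PGE2, against 4.89, 4.15 and 6.69 FPKM untreated, both interferon regulatory factors without overlap in FPKM, at −0.78 (SE 0.31) and −0.65 (SE 0.23), and Irf9 overlapped after scaling. Cytokine, NF-kB and JAK-STAT genes had 18 of 27 lower means (14 scaled, median −0.20), close to the share of all genes, and no member apart, with Nfkb2 at −1.2 (SE 0.44) and Tnfaip3 at −0.92 (SE 0.40).

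DNA replication and cell cycle genes had 25 of 29 lower means (23 scaled, median −0.66). In FPKM 2 stood below the untreated range and 0 above it, and after scaling 2 stood below and 2 above. Ccnd1, which encodes cyclin D1, measured 14.4, 8.19, 0.79 and 0.18 FPKM in PGE2 libraries, against 21.2, 16.7 and 18.8 FPKM in untreated libraries. The 4 PGE2 values spanned 0.18 to 14.4 FPKM, all under the lowest untreated value, and the difference was −2.25 (SE 0.83, 95% interval −4.15 to −0.35). Tyms, the thymidylate synthase, measured 3.11, 2.88, 2.6 and 1.91 FPKM with PGE2, against 3.83, 3.92 and 4.2 FPKM untreated, a difference of −0.47 (SE 0.20). Circadian clock genes had 17 of 18 lower means (16 scaled, median −0.60), with Tef, a PAR bZIP factor, lower without overlap in FPKM only, at 8.31, 8.25, 5.31 and 4.48 FPKM with PGE2, against 8.61, 8.41 and 9 FPKM untreated. In PGE2 libraries 1 to 4 the clock list averaged −0.22, 0.07, −1.28 and −1.36 relative to the untreated mean, and untreated libraries ran from −0.511 to 0.415.

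Most genes of energy and sterol metabolism lay above the all-gene median of −0.17, namely 13 of 13 mitochondrially encoded, 46 of 57 nuclear oxidative phosphorylation and 27 of 37 cholesterol genes. Mitochondrially encoded genes had 10 of 13 higher means (13 scaled, median 0.33, or −0.09 without untreated library 2). Mt-co1, a subunit of cytochrome c oxidase, was the only one without overlap, in FPKM only, at 4369, 4305, 8195 and 5815 FPKM with PGE2, against 4229, 3653 and 4252 FPKM untreated. Nuclear oxidative phosphorylation genes had 23 of 57 higher means and a median of −0.02, which became 47 of 57 and 0.15 with median-ratio scaling. On that scale 6 stood above the untreated range and 0 below it. Ndufa8 of complex I, with a difference of 0.44 (SE 0.22), and Uqcrc2 of complex III, with 0.31 (SE 0.19), stood above the untreated range in FPKM. Cytochrome c, encoded by Cycs, stood below it, with −0.37 (SE 0.19), and both Uqcrc2 and Cycs overlapped after scaling. Cholesterol and sterol genes had 19 of 37 higher means (27 scaled, median 0.02), with the fatty acid synthase Fasn at 0.84 (SE 0.55) and the sterol exporter Abcg1 at −0.80 (SE 0.44), both overlapping. NRF2 target and metallothionein genes had 10 of 23 higher means (14 scaled, median −0.08, or 0.08 with median-ratio scaling).

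**Figure D4:**
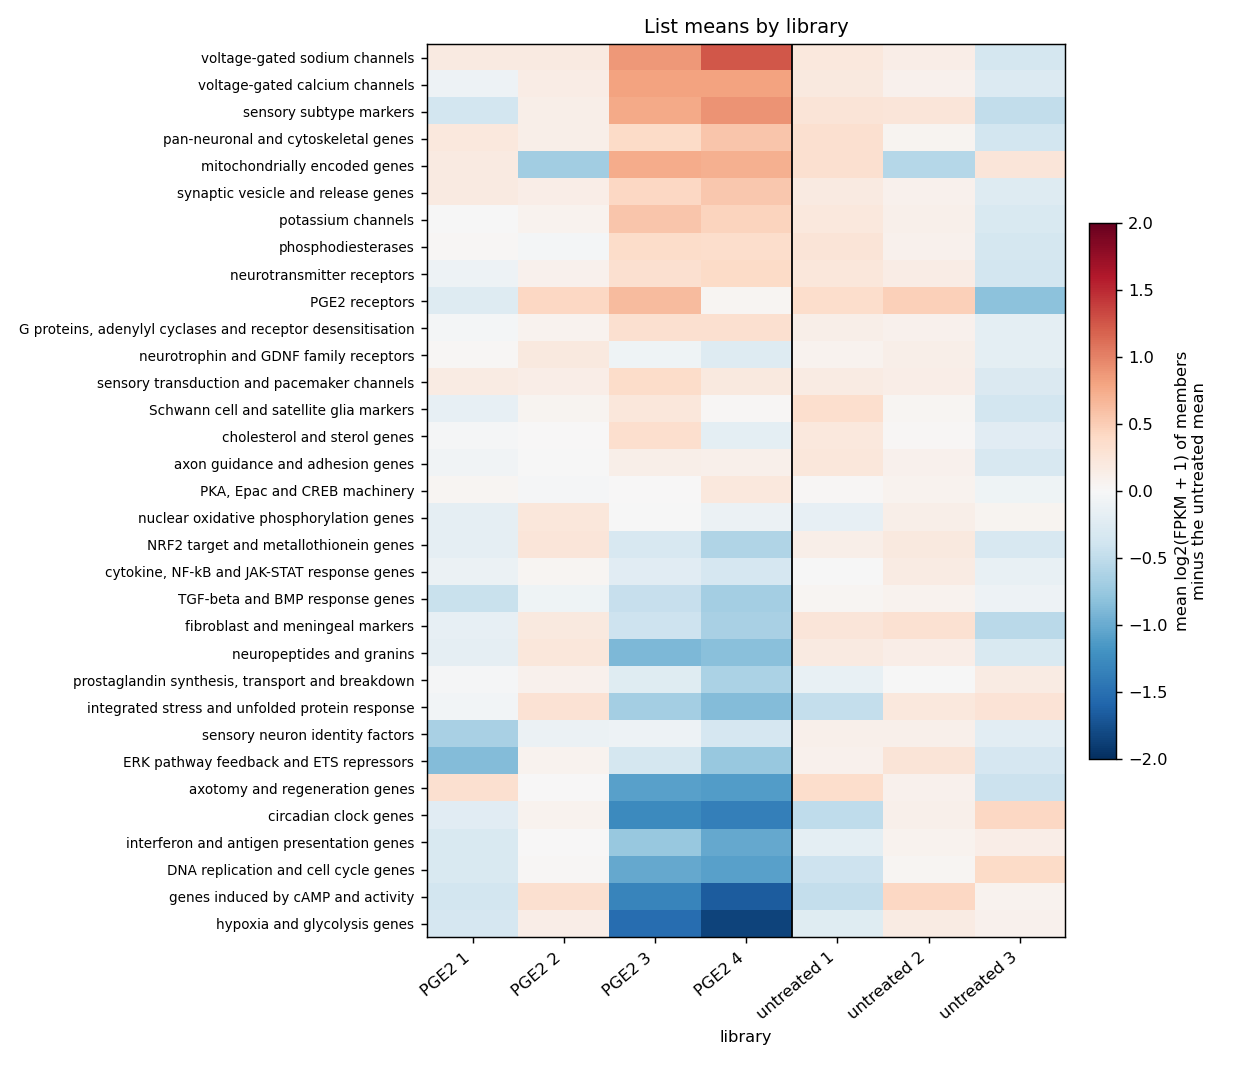
List means by library. Colour gives the mean log2(FPKM + 1) of the tested members in each library minus the mean over the untreated libraries, for PGE2 libraries 1 to 4 (left of the line) and untreated libraries 1 to 3 (right). PGE2 libraries 3 and 4 carry the extremes, such as −1.52 and −1.86 for hypoxia and glycolysis genes, while PGE2 library 2 stays near untreated library 2, at 0.14 and 0.16 in that list.

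In most genes the PGE2 libraries varied among themselves more than the untreated ones, though an SD of 4 values is set beside one of 3. The median SD on log2(FPKM + 1) was 0.36 among 4 PGE2 and 0.29 among 3 untreated libraries. It was larger among PGE2 libraries for 7616 genes (62.8%), and it reached 1 in 603 genes among PGE2 libraries (4.97%) and in 306 among untreated libraries (2.52%). Without PGE2 libraries 3 and 4 the first of these counts was 4100. Leaving out 1 PGE2 library puts 3 libraries in each group. The same count was then 7626, 6948, 7537 and 6520 without PGE2 libraries 1 to 4 in turn. Genes with the widest spread among PGE2 libraries included several of stress and hypoxia lists. Among genes with a settled symbol, Atf3, a transcription factor induced by injury and stress, had the largest SD. It measured 115, 58, 2.53 and 1.02 FPKM in PGE2 libraries, against 11.6, 47.8 and 56.5 FPKM in untreated libraries. The highest and the lowest of all 7 values were both in PGE2 libraries. Rasd2, a small G protein of the Ras family, measured 49.98, 89.4, 2.95 and 0.56 FPKM with PGE2, against 22.6, 84.8 and 104 FPKM untreated, and Hilpda, a lipid droplet protein induced by hypoxia, measured 51.1, 109, 7.35 and 2.72 FPKM with PGE2, against 32.5, 77.6 and 64.1 FPKM untreated. In both, PGE2 libraries 1 and 2 were within or above the range of untreated libraries and libraries 3 and 4 below it.

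Mrgprx4, a Mas-related receptor of itch-sensing neurons whose reads may be shared with close paralogs, was spread in the opposite sense at 0.58, 2.31, 34.8 and 106 FPKM in PGE2 libraries, against 3.69, 10.2 and 2.58 FPKM in untreated libraries. It was low in PGE2 libraries 1 and 2 and high in 3 and 4. RefSeq gives the symbol Mrgprx1 for the deposited name Mrgprx4. A separate gene deposited as Mrgprx1 was at most 0.19 FPKM in the 7 libraries, so which paralog this is remains uncertain. Cotl1, an actin-binding protein, had PGE2 library 4 alone near 0, at 62.8, 91.2, 26.4 and 0.96 FPKM with PGE2, against 58.9, 85.75 and 87.2 FPKM untreated. Arg1, which encodes arginase, had a wide range in both groups, at 26.3, 18.6, 0.54 and 0.84 FPKM with PGE2, against 50.9, 35.2 and 4.2 FPKM untreated. Gpr83, a G protein-coupled receptor, was spread in PGE2 libraries at 34.9, 29.5, 1.82 and 1.23 FPKM with PGE2, against 21.4, 34.6 and 15.8 FPKM untreated. The remaining genes of the 12 were Adm, Junb, Gal, Fgf21 and Ankrd37, described above, and all of the 12 but Mrgprx4 had their lowest PGE2 values in libraries 3 and 4.

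**Figure D5:**
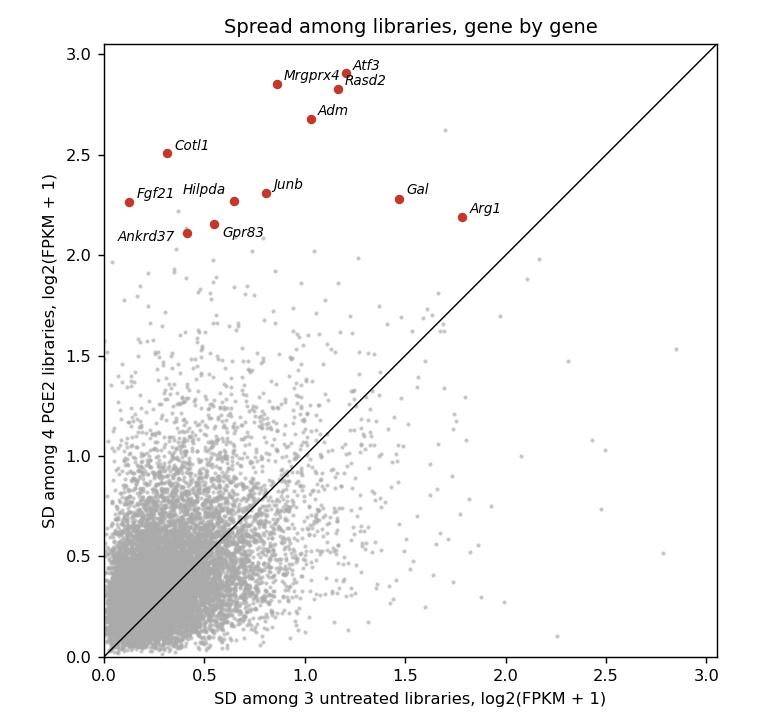
Spread among libraries, gene by gene. Each grey point is 1 of 12123 genes, with its SD of log2(FPKM + 1) among the 3 untreated libraries (x axis) and the 4 PGE2 libraries (y axis). The line marks equal SD, and red points name the 12 genes with the largest SD among PGE2 libraries, of genes with a settled symbol. The SD was larger with PGE2 for 7616 genes, and that of Atf3 was 2.907 with PGE2 and 1.203 untreated.

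Markers of other cell types were low or did not follow the groups, apart from small sums. In bulk RNA, fewer cells of a type and less RNA per cell cannot be told apart. Schwann and satellite glia markers summed to 351 to 458 FPKM in PGE2 libraries and 359 to 434 FPKM in untreated libraries, with 15 of 28 under 1 FPKM everywhere. Much of that sum came from genes that neurons also express, such as Ngfr at 44.6, 82.6, 183 and 117 FPKM with PGE2, against 107, 82.7 and 29.05 FPKM untreated. The other members named were Apoe, an apolipoprotein, at −1.08 (SE 0.64), and the sodium channel Scn7a, at 0.84 (SE 0.55). Fibroblast and meningeal markers summed to 887 to 1105 FPKM in PGE2 libraries and 409.5 to 1107 FPKM in untreated libraries, mostly from Thy1, which neurons also express, and Col1a1 was at most 0.08 FPKM. Vim, an intermediate filament gene, measured 63.7, 119, 86.2 and 50.7 FPKM with PGE2, against 249, 143 and 51.15 FPKM untreated, and Col6a2, a collagen VI chain, measured 9.71, 10.3, 1.47 and 1.51 FPKM with PGE2, against 5.98, 13.3 and 12.7 FPKM untreated. Endothelial and mural markers, of which none reached the filter, summed to 1.66 to 3.94 FPKM in PGE2 libraries and 5.53 to 7.33 FPKM in untreated libraries and so did not overlap. Macrophage and immune markers summed to 0.31 to 15.3 FPKM in PGE2 libraries and 4.51 to 47.1 FPKM in untreated libraries, mainly Cd68, a lysosomal gene, at 3.14, 13.55, 0.09 and 0.04 FPKM with PGE2, against 3.69, 18.3 and 45.1 FPKM untreated. Ptprc, which encodes the leukocyte antigen CD45, was at 0 in all 7 libraries and Csf1r at most 0.07 FPKM. The part of these transcripts in the lower values of interferon and lysosomal genes such as Ifi30 was not tested.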

How the data were processed

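Poly-A enriched, stranded libraries were made from RNA with an integrity number above 8, per the labels' protocols. The authors deposited 1 FPKM value per gene and library, with 2 decimals, and the genome build is Rnor 6.0 per the submitters' processing notes. Aligner, counter and annotation: not given in the sources used here. Rows with values numbered 22076, and 18423 names matched a RefSeq symbol or synonym (GRCr8 table, used for names and promoter sequences only). Names of 2 genes had become dates. Read totals are unknown, so no counting interval was set, and relative depth was read from the steps of low FPKM values. The labels' strandedness does not say how reads were counted, so overlapping and near-identical genes are uncertain.

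Genes averaging 1 FPKM or more across 7 libraries were tested on log2(FPKM + 1), which understates the change of low genes, with limma 3.58.1 in R 4.3.3 (lmFit, then eBayes with a trend, two-sided, Benjamini-Hochberg over 12123 genes). Groups did not overlap where every PGE2 value lay above, or below, every untreated value. Median-ratio scaling used genes above 0 in every library. Genes were named by rule among those with a settled symbol rather than a provisional ID. Such symbols were held by 192 of the 211 higher and 385 of the 435 lower genes without overlap. The rule took the 15 widest gaps per direction, up to 4 non-overlapping members per list or else 2 members with the largest difference, and the PGE2 receptors. It also took the 12 largest SDs among PGE2 libraries, the 5 lowest p-values per direction and the genes at the margin of overlap. Others are said to be picked after their values were seen. The 35 lists and the members were chosen with earlier results of these data known, so lists are described without a test. Same-numbered libraries were checked for pairing, and their deviations from the group means correlated at −0.24, 0.24 and −0.42. The numbers were not taken as pairs. Deviations are taken within small groups, so this check cannot decide whether a litter was shared. The labels do not say whether same-numbered cultures share a litter or day. A few genes are not reported here. Alternatives were other pseudocounts, filters, scalings and fits, a replicate block, and each library left out in turn.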

Additional observations from a re-analysis of the deposited data

Results flagged for a closer look

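In 7 of the 111 genes named by the rule, 1 of the 4 PGE2 libraries stood apart from the other 3 by Dixon's test at the 95% level. Chance gives this in about 1 of 20 groups. Many of the named genes were picked on these same values, so the 7 cannot be judged against that rate. PGE2 library 4 was the high one in Gtdc1 at 4.2 FPKM, in Rph3a at 22.72 FPKM and in Fgf13 at 76.07 FPKM. PGE2 library 3 was the high one in Phgdh at 11.55 FPKM, in Plxna3 at 11.48 FPKM and in Plxnc1 at 9.88 FPKM. PGE2 library 2 was the low one in Pde10a at 4.31 FPKM. Over all genes tested, 1 PGE2 library stood apart in 478 (3.94%), and this was PGE2 library 4 in 204, PGE2 library 2 in 115, PGE2 library 3 in 90 and PGE2 library 1 in 69.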

How the results depend on the processing

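Limma called 0 genes in each of 19 alternatives, with lowest adjusted p-values from 0.119 to 0.929. The 537 genes at an unadjusted p under 0.05 became 3498 with array weights, 347 with a filter at 5 FPKM, 860 without a filter and 105 without PGE2 libraries 3 and 4 (added after seeing the data), and leaving out 1 library gave 152 to 2041, highest without PGE2 replicate 2. Array weights put 35.8 on untreated library 2, and the cause was not tested. Genes without overlap in the higher direction numbered 361 with median-ratio scaling, 340 with quantile normalization and 597 without PGE2 libraries 3 and 4, and 256 to 712 with 1 library left out. Those in the lower direction numbered 275 with the filter at 5 FPKM, 244 and 223 with the 2 scalings, and 903 without PGE2 libraries 3 and 4, and 520 to 2427 with 1 library left out. Fewer libraries overlap less easily, so the last counts are not larger effects. PGE2 had the larger SD in 4100 genes without libraries 3 and 4, and in 6520 to 9450 with 1 left out.

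With a replicate block 133 genes had an unadjusted p under 0.05. Whether the numbers pair the libraries is not given by the labels, and the correlations of deviations given with the methods cannot decide it. Of 3 PGE2 libraries, 2 were most alike to the untreated library of their own number.

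Of 1968 values of named genes, 1959 kept their direction. Ptger2 reversed to −1.26 with array weights, and with 1 library left out it ran from −0.66 (untreated library 3) to 0.76, below 0 also without PGE2 library 2 (−0.11) or 3 (−0.17). Mrgprx4 reversed to −0.69 with array weights, and to −0.0023 with the replicate block and without PGE2 library 4, and leaving out 1 library gave up to 2.02. Ptger1 ran from −0.26 (without untreated library 3) to 0.61 and was −0.026 without PGE2 library 3. The cause was not tested. Of 34 list medians, 21 kept their sign in all alternatives they were computed for, among them sodium, calcium and potassium channels, synaptic and pan-neuronal genes, and hypoxia, cyclic AMP and clock genes. FPKM without read totals limit what can be said of low genes.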

Other observations

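The families below lie outside the lists. They were picked after the values were seen and are described without a test. Of 22 Hox genes tested, which record position along the body axis, 19 had a lower mean with PGE2, against 67.4% of all genes. Their median was −0.35, and −0.23 with median-ratio scaling. Of the 22, 4 stood below the untreated range, against 3.59% of all genes. Hoxa9 measured 2.21, 5.54, 3.59 and 3.21 FPKM with PGE2, against 6.05, 6.04 and 5.98 FPKM untreated. Its untreated values lay within 0.1 FPKM of each other, PGE2 library 1 was lowest, and the difference was −0.65 (SE 0.26). Hoxb2 measured 3.06, 8.87, 9.16 and 5.87 FPKM with PGE2, against 9.8, 10.2 and 10.6 FPKM untreated, and Hoxa4 and Hoxc4 differed by −0.53 and −0.75. Hoxc8 had the other sign at 0.44 (SE 0.24). Cytosolic ribosomal protein genes were lower on average in 80 of 83 cases, against 67.4% of all genes. In most of them untreated library 3 was the highest of the 7 libraries. Rpl10, for example, measured 89.7, 97.4, 47.3 and 50.6 FPKM with PGE2, against 84.6, 105 and 171 FPKM untreated. The family median was −0.57, against −0.40 after median-ratio scaling. Rpl6 and Rps27l, 2 of 83, did not overlap, against 3.59% of all genes.

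On the higher side, 3 of 4 Dpysl genes, which encode collapsin response mediator proteins of growing axons, did not overlap, against 1.74% of all genes. Dpysl5 measured 50.75, 44.9, 61.2 and 62.8 FPKM with PGE2, against 33.7, 42.8 and 30.55 FPKM untreated, a difference of 0.61 (SE 0.21), and Dpysl3 measured 247, 231, 236 and 259.7 FPKM with PGE2, against 211, 211 and 154 FPKM untreated, a difference of 0.35 (SE 0.20). All 6 genes of 14-3-3 proteins had higher means (median 0.42), against 32.6% of all genes, with Ywhab at 0.63 (SE 0.27) and Ywhaz at 0.55 (SE 0.25) without overlap. In Ywhab and Ywhaz PGE2 libraries 3 and 4 were highest. The limma adjusted p was 0.595 for each of the non-overlapping genes of this section.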
